A study of Homo sapiens with 2 samples.

Results

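The PAR polarity complex was read as 10 genes, PARD3, PARD6A, PARD6B, PARD6G, PRKCI, PRKCZ, LLGL1, LLGL2, CRB3 and SCRIB, of 19775 genes with a probe set of their own. A probe set is a group of short probes that together give 1 intensity for a transcript. Every probe set annotated to exactly 1 of these symbols was taken, which gave 22 probe sets, and all 10 genes had at least 1. The rule used gene names and no intensities, although the set was proposed with earlier results of these data known. The cells were AsPC-1, an established human PDAC line, cultured in DMEM with fetal bovine serum according to the labels, and transfected either with siRNA against PGR (si-PGR) or with control siRNA (Ctrl). The paper's methods name RPMI medium for AsPC-1 instead, so the medium is not settled. Total RNA was labelled with biotin for a 3' expression array, 1 array per group, so there were no replicates. The groups could not be tested against each other, and having 1 array each limits how precise any value is. In such bulk RNA, fewer cells of a type and less RNA per cell cannot be told apart.

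PAR6 proteins are scaffolds that bind GTP-loaded CDC42 through a CRIB motif and hold an atypical protein kinase C, and PAR3 joins this module to the cell cortex and to tight junctions. Binding of CDC42 relieves inhibition of the kinase, which then phosphorylates basal proteins such as LLGL and keeps them away from the apical membrane. Crumbs proteins recruit the module apically, while SCRIB, LLGL and DLG define the basolateral side of epithelial cells. The study reported lower CDC42 after PGR knockdown from its mRNA array. It also examined CDC42 by western blot, promoter reporter and chromatin immunoprecipitation. The question here was how the mRNAs of the polarity partners of CDC42 stood after si-PGR.

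The transfected siRNAs are shown because they define the treated group, and the sources used here do not say which of them was used for the array. The antisense strands are given with bases 2 to 8, the seed, in capitals.
si-PGR-1: uUGCCUCAaaccaauugcctt
si-PGR-2: uCUUGGGUaauugugcagctt
The target itself could not check the labels. The probe sets of PGR read 73.3 and 4.80 on the array labelled si-PGR, against 16.1 and 1.53 on the array labelled Ctrl. All of these lie below the signal floor of 97.9, the median of all values of probe sets with 1 gene symbol, and their order goes against the labels. Directions below rest on the labels alone.

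Values were compared as log2(intensity + 1), the array labelled si-PGR minus the array labelled Ctrl, and a gene with several probe sets was represented by the brightest of them on the mean log2 scale. Genes with at least 1 value at the floor were counted, which gave 11614 genes, and 10840 of them reached it on both arrays. All 10 polarity genes reached it on both. The epithelial identity of the cells was visible on both arrays, with KRT8, a simple epithelial keratin, at 21156 on the array labelled si-PGR and 21416 on the array labelled Ctrl, and EPCAM, an epithelial adhesion molecule, at 20304 and 20351 in the same order. The ductal antigen CEACAM6 was close to the floor, at 79.3 on the array labelled si-PGR and 120 on the array labelled Ctrl. KRT7, at 182 and 189 in the same order, and MUC1, at 174 and 122, were also dim, and MUC1 had a log2 difference of 0.51. Of 9 epithelial markers, 7 had differences below 0, against 46.8% of all counted genes. The summed intensity of the 9 markers was 123307 on the array labelled si-PGR and 118194 on the array labelled Ctrl. Without the keratin KRT18 it was 67882 and 69622 in the same order. Of 16 markers of acinar, endocrine, fibroblast, immune and endothelial cells that were read, 3 reached the floor on either array (COL1A1, DCN and PECAM1), none above 299 on the array labelled si-PGR or 299 on the array labelled Ctrl.

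PARD6B was the polarity gene that stood apart. Its brightest probe set (235165_at) read 1163 on the array labelled si-PGR and 2557 on the array labelled Ctrl, a log2 difference of -1.14, so that the si-PGR value was 45.5% of the Ctrl value. Both intensities were far above the floor. The remaining probe sets of PARD6B were dimmer and did not show the same size. 214827_at read 167 on the array labelled si-PGR and 183 on the array labelled Ctrl, a difference of -0.13. 211907_s_at read 60.3 on the array labelled si-PGR, below the floor, and 109 on the array labelled Ctrl, a difference of -0.84, or at least 1.11-fold lower when the si-PGR value is set to the floor. All 3 probe sets were thus lower on the array labelled si-PGR, from -1.14 to -0.13, and the bright one alone carried a difference of 2-fold between values above the floor. Their SD was 0.52 on the log2 scale, against a pooled SD of 0.40 between probe sets of the same gene over 5708 genes, in both cases over probe sets past the floor on at least 1 array. These SDs describe disagreement within the arrays and not the spread between cultures.

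The other PAR6 genes did not show this difference. PARD6A, read by 1 probe set, gave 427.9 on the array labelled si-PGR and 428.2 on the array labelled Ctrl, a log2 difference of -0.0012. PARD6G gave 262 on the array labelled si-PGR and 247 on the array labelled Ctrl with its brightest probe set, a difference of 0.084. The other probe sets of PARD6G were below the floor on both arrays, at 43.9 and 44.0 on the array labelled si-PGR and 20.5 and 3.01 on the array labelled Ctrl, and give no usable difference. Read by its brightest probe set, PARD6B had a difference lower than that of PARD6A by 1.14 and than that of PARD6G by 1.22 (log2). By that reading the PAR6 paralogues, which encode closely related scaffolds, were unequal between the arrays. The PARD6B probe set 214827_at, past the floor on both arrays at -0.13, stood much nearer to PARD6A and PARD6G.

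**Figure D1:**
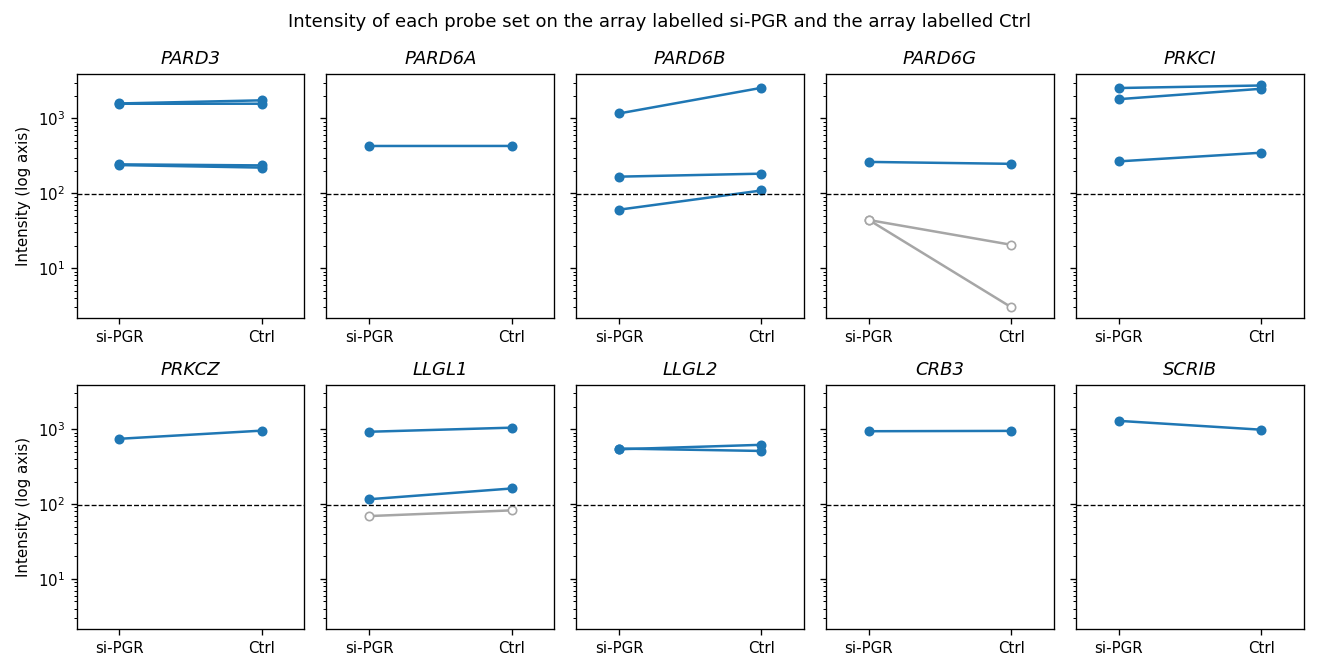
Intensity (log axis) of every probe set of the polarity genes on the array labelled si-PGR (left of each panel) and the array labelled Ctrl (right), with 1 line per probe set, the signal floor of 97.9 as a dashed line, and open grey points for probe sets below it on both arrays. The steepest line above the floor is that of the bright PARD6B probe set, at 1163 on the array labelled si-PGR and 2557 on the array labelled Ctrl.

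PRKCI and PRKCZ, the atypical protein kinases C that PAR6 holds, were both lower on the array labelled si-PGR without reaching 1.5-fold. PRKCI, the iota form that is amplified or overexpressed in several carcinomas, had 3 probe sets above the floor on both arrays. The brightest (213518_at) read 2541 on the array labelled si-PGR and 2748 on the array labelled Ctrl, a log2 difference of -0.11. The second (209678_s_at) read 1804 on the array labelled si-PGR and 2484 on the array labelled Ctrl, a difference of -0.46. The dimmest (209677_at) read 267 on the array labelled si-PGR and 348 on the array labelled Ctrl, a difference of -0.38. The second and the dimmest were designed from the same transcript record, and the mean over all 3 was -0.32 with an SD of 0.18. PRKCZ, the zeta form, was read by 1 probe set at 744 on the array labelled si-PGR and 956 on the array labelled Ctrl, a difference of -0.36. The counted genes were divided into 4 equal signal classes by mean log2 signal, the fourth being the brightest. In the second, where PRKCZ lay, differences had an SD of 0.28, and in the fourth, where the brightest probe set of PRKCI lay, an SD of 0.18. The second PRKCI probe set, at -0.46, lay outside the middle 95% of genes of its signal class, the third, which ran from -0.43 to 0.42.

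PARD3, the scaffold that anchors the module at the cortex, had 4 probe sets above the floor and differences on both sides of 0. The brighter pair read 1581 and 1567 on the array labelled si-PGR, against 1741 and 1569 on the array labelled Ctrl. The second of this pair (221526_x_at) holds some probes that match other sequences. The dimmer pair read 243 and 238 on the array labelled si-PGR, against 235 and 220 on the array labelled Ctrl. The log2 differences ran from -0.14 to 0.11 with a mean of 0.0043. CRB3, the Crumbs protein of mammalian epithelia, read 939 on the array labelled si-PGR and 948 on the array labelled Ctrl, a difference of -0.015. Both PARD3 and CRB3 thus lay within 0.2 of equal readings, and their bright probe sets lay in the same signal class as that of PARD6B.

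The basolateral proteins did not move as one group. LLGL1, a homologue of the Drosophila tumour suppressor Lgl, was lower on the array labelled si-PGR with each of its probe sets. Its brightest read 924 on the array labelled si-PGR and 1047 on the array labelled Ctrl, a log2 difference of -0.18, and the second read 116 and 161 in the same order, a difference of -0.47. The third was below the floor on both arrays, at 69.1 on the array labelled si-PGR and 82.4 on the array labelled Ctrl. LLGL2, the paralogue typical of polarised epithelia, had probe sets of opposite sign. The one read 539 on the array labelled si-PGR and 618 on the array labelled Ctrl, a difference of -0.20, and the other 551 and 512 in the same order, a difference of 0.11, so its mean was -0.046. SCRIB, the scaffold of the basolateral domain, was the 1 polarity gene that was higher by more than 0.2, with 1291 on the array labelled si-PGR and 984 on the array labelled Ctrl, a difference of 0.39. SCRIB was read by 1 probe set, so no second reading stands beside this value.

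**Figure D2:**
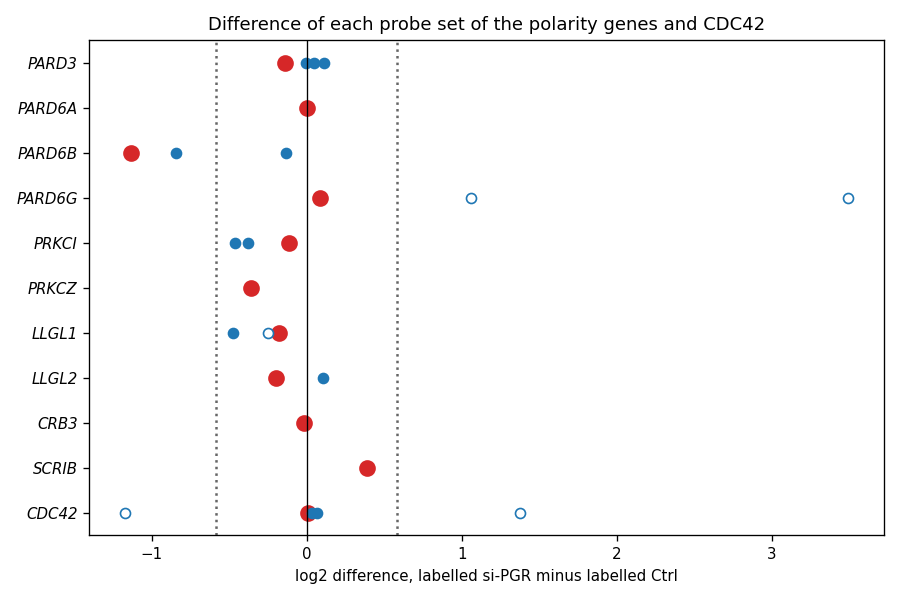
Log2 difference (array labelled si-PGR minus array labelled Ctrl) of each probe set of the polarity genes and CDC42, with the brightest probe set of each gene as a large red point, the others in blue, open points for probe sets below the floor on both arrays, and dotted lines at 1.5-fold. Among polarity genes with several probe sets, PARD6B, PRKCI and LLGL1 have all their points left of 0 and PARD6G has all right of it. The points of PARD3 and LLGL2 straddle 0. The open points of LLGL1 and PARD6G are below the floor on both arrays and give no usable difference.

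Of the 10 genes, 1 had a si-PGR value at least 1.5-fold lower (PARD6B) and 0 had one at least 1.5-fold higher. Over all counted genes 4.72% were at least 1.5-fold lower and 3.65% at least 1.5-fold higher, so that a single lower gene among 10 is close to the background and is no result about the group. By probe set, 2 of the 19 polarity probe sets past the floor had a log2 difference past 1.5-fold lower, both of PARD6B, against 6.21% of all probe sets past the floor. One of them is the dim probe set that was at least 1.11-fold lower by its bound, so 1 of the 19 was at least 1.5-fold lower with values below the floor raised to it. In the same count, 0 were at least 1.5-fold higher, against 4.61%. PARD6B lay in the third signal class, where 0.758% of the counted genes were at least 1.5-fold lower and the middle 95% of differences ran from -0.43 to 0.42. It was 1 of the 25 genes at least 2-fold lower among those past the floor on both arrays, which was 0.231% of them. SCRIB, in the same class at 0.39, lay inside that middle 95%. Without PARD6B, the other 9 genes ran from -0.36 to 0.39.

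Of the 10 genes, 8 were below 0 and 2 above, against 46.8% of all counted genes below 0, and 7 lay within 0.2 of it on the log2 scale. PARD6A and CRB3, at -0.0012 and -0.015, were among the 8, and with each array centred on its median 6 were below 0 and 4 above, against 38.0% of all counted genes below 0. The median difference was -0.13, against 0.021 over all counted genes. Of the 19 polarity probe sets past the floor, 14 were lower and 5 higher, with a median of -0.13 against 0.0060 over all such probe sets. Probe sets of a gene are not independent readings of the group. PARD6B and PRKCI were the polarity genes with 3 or more probe sets past the floor that were all lower, out of 3 such genes, the third being PARD3. Over all 2531 genes with as many probe sets past the floor, 13.6% had all of them lower.

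**Figure D3:**
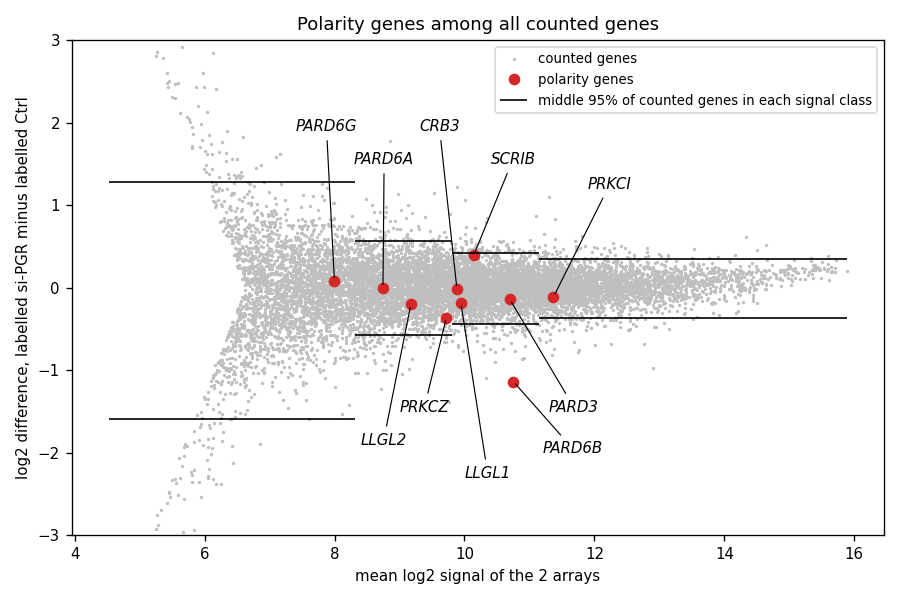
Log2 difference (array labelled si-PGR minus array labelled Ctrl) against mean log2 signal, with 1 grey point per counted gene, the polarity genes in red, and the middle 95% of the counted genes in each signal class between black lines. PARD6B lies below the lines of its class at -1.14, the other polarity genes lie inside theirs, and 26 counted genes lie outside the vertical axis.

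The size of the PARD6B difference depended on which probe sets were read. With the mean of its 3 probe sets it was -0.70, which includes the dim si-PGR value as measured. With that value raised to the floor the mean was -0.47, short of 1.5-fold, and over the probe sets past the floor on both arrays it was -0.63. PARD6G was 1.55 with the mean of all its probe sets, a value set by those below the floor. PRKCI was -0.32 and LLGL1 -0.33 with the mean of the probe sets past the floor, and LLGL2 -0.046. SCRIB ran from 0.38 to 0.44 and PRKCZ from -0.38 to -0.31 over all settings, so neither reached 1.5-fold under any of them.

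**Figure D4:**
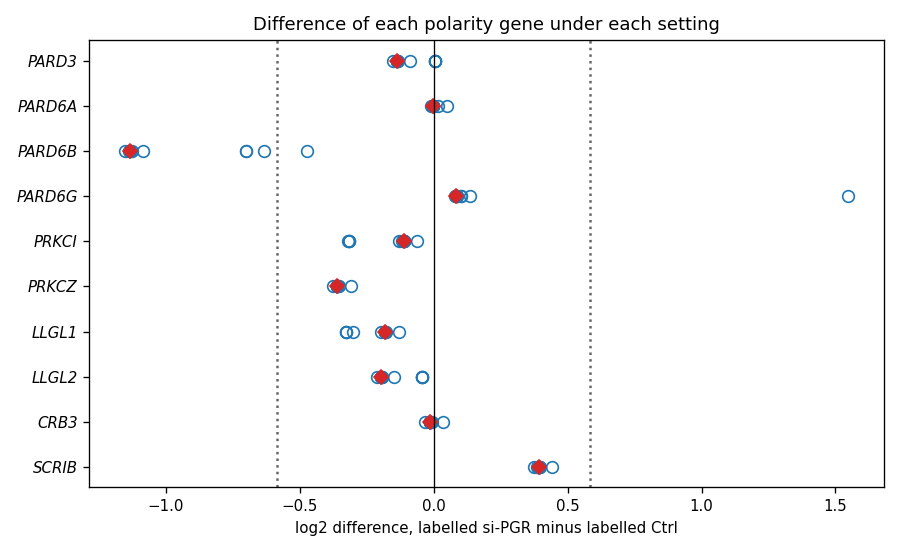
Log2 difference (array labelled si-PGR minus array labelled Ctrl) of each polarity gene as reported (red diamonds) and under each alternative setting (open circles), with dotted lines at 1.5-fold. The circles of PARD6B lie near the reported value and, for means of its probe sets, at -0.70, -0.63 and -0.47, and PARD6G has 1 circle at 1.55 that comes from probe sets below the floor.

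CDC42, the GTPase that PAR6 binds, read 2394 on the array labelled si-PGR and 2376 on the array labelled Ctrl, a log2 difference of 0.011, and its 3 probe sets past the floor ran from 0.011 to 0.064. The significant decrease of CDC42 that the paper reports from its mRNA array was not seen in these values. With 1 array per group it could not be tested here. Of 69 further genes that act with the complex, 55 were counted. Read by their brightest probe set, 0 of these were at least 1.5-fold lower or higher, against 4.72% and 3.65% of all counted genes. The median of the 55 genes was -0.013. Other probe sets past the floor on at least 1 array went past 1.5-fold in both directions for some of them. They reached -1.43 and 1.42 for PARD3B, -1.11 for PAWR and 2.32 for WWC1. In the list of GTPases and regulators that bind PAR proteins, 9 genes besides CDC42 were counted with a median of -0.0055. ECT2, an exchange factor that associates with PAR6, was lowest at -0.36, with its second probe set at -0.32. RAC1 was highest at 0.17, with probe sets from -0.0076 to 0.44. Among 6 counted Crumbs partners (median -0.14), MPP7, a scaffold of the MAGUK family, was lowest at -0.47, although its probe sets spread between -0.52 and 0.099, and PALS2 highest at 0.18, with another probe set at -0.37. PALS1 and PATJ, which link Crumbs to PAR6, stood at -0.16 and 0.026 with other probe sets at 0.12 for PALS1 and from -0.26 to 1.12 for PATJ.

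Scribble and DLG partners had a median of -0.013 over 7 counted genes. ERBIN, a relative of SCRIB, was lowest at -0.39, with another probe set at -0.093. STXBP5, a relative of LLGL, was highest at 0.21, with probe sets from 0.014 to 0.39. Homologues of PAR1, PAR4 and PAR5 had a median of -0.037 over 16 genes. The lowest was MARK2, a PAR1 kinase, which read 344 on the array labelled si-PGR and 490 on the array labelled Ctrl with its single probe set past the floor, a difference of -0.51. The highest was STRADA, a partner of the PAR4 kinase STK11, at 0.17, with another probe set at -0.38. Genes that dock PAR3 and their relatives had a median of 0.085 over 8 genes, and the highest was NECTIN4, an adhesion molecule, at 0.38. NECTIN4 was close to the floor, at 135 on the array labelled si-PGR and 103 on the array labelled Ctrl, with 1 probe set past it. NECTIN1 stood at -0.31 with its si-PGR value below the floor, so it was at least 1.06-fold lower. The lowest gene past the floor on both arrays was TJP1, a tight junction scaffold, at -0.24, with another probe set at -0.034. Adaptors and substrates of atypical protein kinase C had a median of 0.073 over 9 genes, from NUMB, a cell fate determinant that the kinase phosphorylates, at -0.32 to its paralogue NUMBL at 0.28, with another NUMBL probe set at -0.37. NUMB was also close to the floor, at 113 on the array labelled si-PGR and 142 on the array labelled Ctrl.

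**Figure D5:**
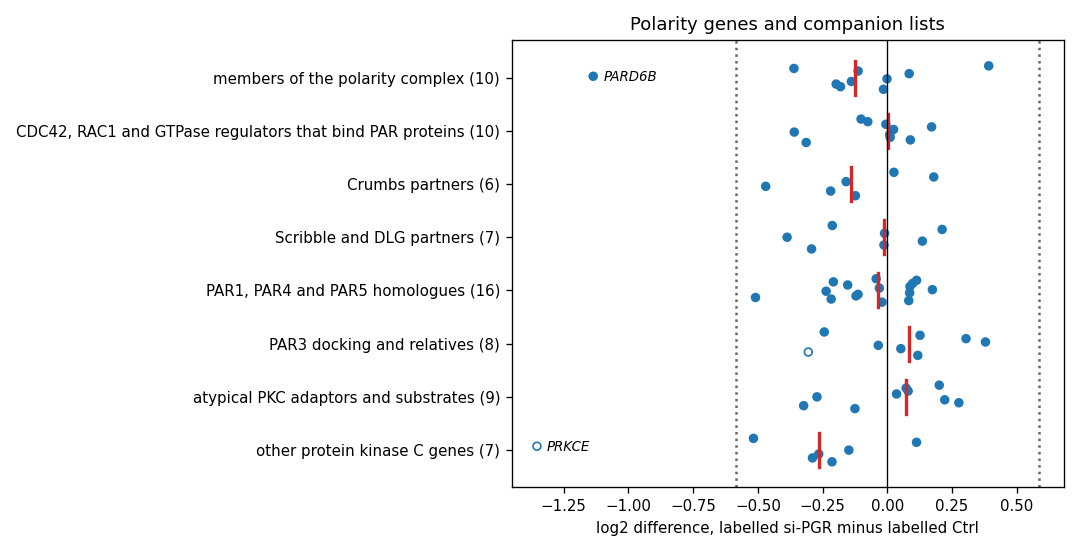
Log2 difference (array labelled si-PGR minus array labelled Ctrl) of each counted gene of the polarity complex and of companion lists, with the number of counted genes in brackets, list medians as red bars, open points for genes below the floor on 1 array, and dotted lines at 1.5-fold. PARD6B and PRKCE are the genes past 1.5-fold, and the GTPase list as drawn includes CDC42.

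Promoters are shown because PGR is a nuclear receptor that binds DNA at response elements. Windows of 250 bases before the start, from RefSeq on GRCh38.p14, were read for 6 of the 10 genes, 9 windows in all. The promoters of PARD6B, PARD3, LLGL2 and SCRIB were not analysed here. The palindromic progesterone response element was searched as GNACA and TGTNC with any 3 bases between them, and its single arm as the hexamer TGTNCT, on both strands. A hexamer can overlap the right arm of the palindrome. No member window held the palindrome, which 0.327% of 35116 windows did. The hexamer was in 3 of the 9 windows, against 35.5% of all windows, and the GC box GGGCGG in 7 of 9, against 42.6%. The 9 windows were rich in G and C, at 58% to 84.8%, against a median of 58% over all windows. PRKCZ alone gave 4 of the 9, so these counts do not describe 9 separate genes. Hexamers were found before PARD6A, at position -26 from the start, and before 2 of the 4 starts of PRKCZ, at -161 and -82 in the window shown. The window of PRKCI held none. Whether these letters relate to the differences between the arrays was not tested. A match of letters is a description and not a binding site. Hexamers are in capitals.
PARD6A, chr16:67660710-67660959, plus strand: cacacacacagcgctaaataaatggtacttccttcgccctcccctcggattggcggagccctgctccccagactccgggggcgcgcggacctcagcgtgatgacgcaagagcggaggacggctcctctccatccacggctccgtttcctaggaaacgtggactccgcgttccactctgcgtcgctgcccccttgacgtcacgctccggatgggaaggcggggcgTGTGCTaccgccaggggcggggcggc
PRKCZ, chr1:2073414-2073663, plus strand: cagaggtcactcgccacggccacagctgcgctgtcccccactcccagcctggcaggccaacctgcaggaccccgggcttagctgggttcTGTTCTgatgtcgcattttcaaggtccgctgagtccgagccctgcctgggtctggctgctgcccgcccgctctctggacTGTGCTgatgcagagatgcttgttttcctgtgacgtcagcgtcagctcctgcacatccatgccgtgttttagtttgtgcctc
PRKCI, chr3:170222174-170222423, plus strand: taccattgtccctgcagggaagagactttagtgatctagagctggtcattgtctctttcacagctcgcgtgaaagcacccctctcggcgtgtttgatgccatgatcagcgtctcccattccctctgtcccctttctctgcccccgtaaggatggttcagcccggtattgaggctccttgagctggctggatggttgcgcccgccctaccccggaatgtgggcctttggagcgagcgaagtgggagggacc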

How the data were processed

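Each array came with 1 intensity per probe set on a linear scale, as deposited by the authors. Details of summary, background correction and scaling were not given in the sources used here. Trimmed of 2% at either end, the intensities averaged 500.1 on each array, so the arrays share a level and a change in overall brightness cannot be seen.

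Probe sets were named from the platform annotation. Of these, 41097 had 1 symbol, 1801 several and 11777 none, and the last 2 kinds were left out, among them 1 probe set shared by LLGL1 and FLII. Symbols were updated through gene identifiers to RefSeq for 41043 probe sets. Probe sets with an x in their name, some of whose probes match other sequences, were kept. Those read for KRT8, KRT18, COL1A1, DCN and NUMBL are of this kind. Differences are log2(intensity + 1), and 1.5-fold and 2-fold were the size thresholds. With 1 array per group, no p-value or standard error was computed.

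The members and lists were chosen with earlier results of these data known. Named are all members, CDC42, PGR, the list genes past 1.5-fold and, where there were none, the lowest and highest of each list. PALS1, PATJ, PARD3B, PAWR, WWC1, TJP1 and the cell type markers fall outside this rule and were picked after their values were seen. The same holds for the protein kinases C other than PRKCE and for PKN2 and PKN3. Alternatives were other ways to combine probe sets, centring on the median, quantile normalization, loess (span 0.7), an offset of 16, other filters, and counts by probe set or at 2-fold. Means over probe sets past the floor on both arrays or with dim values raised to the floor, and counts by probe set with dim values raised, were added after seeing the data. The calculation was tested on simulated data with known folds. Python 3.11.15, numpy 2.4.6, pandas 2.3.3, statsmodels 0.14.6 and matplotlib 3.10.9 were used.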

Additional observations from a re-analysis of the deposited data

How the results depend on the processing

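PARD6B was -1.15 to -0.70 under the first 10 other ways of computing a difference, where -0.70, with either mean of its probe sets, includes a si-PGR value below the floor. Of 3 alternatives chosen after seeing the data, the mean with values below the floor raised to it put PARD6B at -0.47 and left 0 polarity genes at least 1.5-fold lower, and the mean of probe sets past the floor on both arrays put it at -0.63. Counting probe sets in place of genes gave 2 lower, both of PARD6B, and 1 with values raised to the floor, the third added alternative. The mean of all probe sets gave 1 gene at least 1.5-fold higher, PARD6G at 1.55, from values below the floor. The median of the polarity genes stayed below 0 under the alternatives that gave one, at -0.030 with the means of probe sets. PARD3, PARD6A and CRB3 changed sign under 4, 2 and 1 of them, all within 0.2 of 0. Over all genes, the counts at least 1.5-fold lower and higher, 548 and 424 as reported, were 968 and 770 with the mean of all probe sets, 3277 and 2770 with no filter, 55 and 44 with the floor at the 75th percentile, which kept 7 of the 10 polarity genes, 250 and 202 with both values at the floor, 311 and 265 with values raised to it, 251 and 229 with the mean over raised values, 206 and 177 with the mean of probe sets past the floor on both arrays, and 1337 and 993 by probe set. At 2-fold they were 184 and 129. Median centring turned the balance, with 464 lower and 506 higher. No paired analysis was possible because each group had 1 array. Without replicates the error between cultures is unknown, and differences of dim probe sets are the least certain.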

Other observations

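Outside the complex, 1 list held the conventional and other protein kinases C together with the related kinases PKN2 and PKN3. These share a catalytic fold with PRKCI and PRKCZ but do not bind PAR6. Of its 7 counted genes, PKN2 and PKN3 among them, 6 were below 0, against 46.8% of all counted genes. The median log2 difference of the 7 was -0.26, against 0.021 over all counted genes. PRKCE, the epsilon form, read 91.5 on the array labelled si-PGR, below the floor, and 235 on the array labelled Ctrl. Set to the floor, its si-PGR value was at least 2.40-fold lower, and the gene was read by 1 probe set past the floor. PRKCE, PRKCQ, PRKCD and PKN3 lay in the first and dimmest signal class. There the median difference was -0.029 and the middle 95% ran from -1.59 to 1.28. The difference of PRKCE as measured, -1.35, was inside that range. PRKCE was the 1 gene of the 7 at least 1.5-fold lower, against 4.72% of all counted genes. PRKCQ, the theta form, read 180 on the array labelled si-PGR and 258 on the array labelled Ctrl, a difference of -0.52, with another probe set at 0.25. PKN3 read 162 on the array labelled si-PGR and 198 on the array labelled Ctrl, a difference of -0.29. PRKCA, the alpha form, stood at -0.26 with another probe set at 0.023. PRKCD, the delta form, read 188 on the array labelled si-PGR and 209 on the array labelled Ctrl, a difference of -0.15. PKN2 was at -0.21 with another probe set at 0.078, while PRKCH, the eta form, was at 0.11 with another probe set at -0.36. With 1 array per group none of these differences could be tested.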
